A study of Mus musculus with 27 samples.

Results

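Fatty acid oxidation and ketone use were followed in regenerating mouse muscle through 30 enzymes and carriers, chosen by gene name. All 30 had 1 entry among the 55852 of the table of injured muscle and 1 among the 55677 of the table with control muscle, and all passed the expression filter in both. Of these, 23 act in mitochondria, 3 (Acaa1a, Ehhadh and Hsd17b4) act in peroxisomes, and 4 (Crat, Acad11, Eci2 and Mlycd) are placed in more than 1 compartment and were kept apart. The muscle came from male mice injected with cardiotoxin (CTX), a snake venom toxin that destroys myofibres, in the gastrocnemius. WT mice and Gsdme KO mice, littermates from heterozygous crosses per the methods, were sampled 1, 4, 7 and 14 days after injury. Each genotype and day (written D1, D4, D7 or D14) had 3 libraries, which makes 24. Gsdme encodes gasdermin E, a pore-forming protein of pyroptotic cell death, and was targeted in every cell of the KO mice. The labels call these mice KO in the sample titles and knockdown in the genotype field, and give no age. A further 3 WT libraries came from uninjured muscle, which the study's methods place on the contralateral side at 24 h and the series' design text calls unloaded. These controls were deposited in a table of their own with the 3 WT D1 libraries, so injury was tested only there, and no KO control was analysed here.

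Long-chain fatty acids enter mitochondria as carnitine esters. Cpt1a and Cpt1b, the liver-type and muscle-type carnitine palmitoyltransferases of the outer membrane, form the ester, Slc25a20 carries it across the inner membrane, and Cpt2 returns the fatty acid to coenzyme A. Each turn of β-oxidation then uses an acyl-CoA dehydrogenase, a hydratase, a hydroxyacyl-CoA dehydrogenase and a thiolase, and the electron transfer flavoprotein (Etfa, Etfb, Etfdh) passes electrons to the respiratory chain. Peroxisomes run a parallel chain that shortens very long and branched acyl chains, in which Hsd17b4 and Ehhadh are multifunctional enzymes and Acaa1a is a thiolase. Oxidative muscle fibres also burn ketone bodies through Bdh1, Oxct1 and Acat1. Levels are given as TPM, the share of transcripts scaled to a fixed library total, which are per transcript length and can be compared between genes, and differences as log2 of TPM + 1 from limma, called at an adjusted p below 0.05.

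The tissue changed composition with injury, to a different extent in each library, and no result here was adjusted for it. The summed level of 12 leukocyte and macrophage markers was 172 to 222 TPM in control muscle and 1048 to 5169 TPM at WT D1. The summed level of 14 myofibre markers was 203120 to 219220 TPM in controls and 103100 to 209820 TPM at WT D1, and none of either list was at 0. In bulk muscle, fewer myofibres and less RNA per myofibre cannot be told apart. Libraries also stood apart from their groups. KO D4 replicate 2 had 498 TPM of leukocyte markers against 4088 and 3415 TPM in the other KO D4 libraries, and WT D4 replicate 1 had 51381 TPM of myofibre markers against 103780 and 108510 TPM in its group. Gsdme itself ran from 1.46 to 4.85 TPM in the WT and from 0.95 to 2.17 TPM in the KO libraries of the injured table. The genotypes did not overlap at D1, D4 or D7, but overlapped at D14 (1.46 to 2.26 TPM in WT, 1.27 to 1.96 TPM in KO), and averaged over the days Gsdme was 0.55 ± 0.095 (SE) log2 units lower in KO without passing the test (limma, adjusted p = 0.066).

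Of the 30 genes, 23 matched a promoter window in the RefSeq-derived table of build GRCm38.p6, each window running from 250 bases before to 50 bases after a start. Hadha and Hadhb, the subunits of the mitochondrial trifunctional protein that carries out the last steps for long chains, are divergent neighbours whose starts lie 273 bases apart on chromosome 5, and their windows overlap. The 68 bases of this overlap that lie outside every annotated transcript of the pair are shown because any element in them sits between both genes. They span chr5:30155163-30155230 and are written on the Hadhb (plus) strand with a GC box (GGGCGG, searched on both strands) in capitals:
Hadha-Hadhb: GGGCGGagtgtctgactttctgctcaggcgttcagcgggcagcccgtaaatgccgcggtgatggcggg
The letters of a GC box were found in 35.7% of all 32851 windows and in windows of 17 of the 23 matched members. Windows were also searched on both strands for the direct repeat read by PPAR factors (DR1) and for the element read by oestrogen-related receptors, TCAAGGTCA, motifs chosen with the expression results known. No member window held either in full, against 0.0396% of all windows for DR1 and 0.423% for the other element. With up to 2 mismatches DR1 was found in Echs1, Etfa and Slc25a20, against 3.86% of all windows, and with 1 mismatch the oestrogen-related receptor element was found in Bdh1, against 7.46%. These stretches are written on the gene's strand with the matching letters in capitals, and Etfa carries the match on the opposite strand. They lie at chr7:140116484-140116512 (minus strand), chr9:55512300-55512328 (minus), chr9:108662134-108662162 (plus) and chr16:31422196-31422220 (plus). The Slc25a20 match begins 6 bases after the start and the others 77 to 93 bases before it.
Echs1: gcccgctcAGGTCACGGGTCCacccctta
Etfa: gcacacccTTACCTTTGCCCTactcccaa
Slc25a20: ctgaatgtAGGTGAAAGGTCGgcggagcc
Bdh1: ggtcaaatTCACGGTCAgtttaagc
These matches are letters in a window and no binding was measured.

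In control muscle most of the 23 mitochondrial members were more abundant than the 3 peroxisomal members. Etfb had the highest mean level of the 30, at 450 ± 35.8 TPM (SD, n = 3), followed by Hadhb at 264 ± 54.1 TPM and the very long-chain dehydrogenase Acadvl at 195 TPM. Ehhadh was the lowest at 1.83 ± 0.40 TPM, and the other peroxisomal enzymes reached 25.5 ± 4.93 TPM (Hsd17b4) and 32.0 ± 3.54 TPM (Acaa1a). Of the mitochondrial members Cpt1a (7.93 TPM), Acot2 (8.70 TPM) and Bdh1 (31.2 TPM) had means below that of Acaa1a. Outside the members, 18 other peroxisomal lipid oxidation genes summed to 403 to 473 TPM in controls. The 16 other fatty acid and ketone genes, not all of them mitochondrial, summed to 235 to 258 TPM. Cpt1b outnumbered Cpt1a 13.6 to 19.3 times in each control library. Together the 30 transcripts made up 0.16% to 0.326% of all TPM across the 6 libraries of the control table and 0.161% to 0.391% across the 24 injured libraries.

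One day after CTX, most mitochondrial enzymes were lower in TPM, and no peroxisomal one was called lower on that scale. Of the 30 members, 17 fell and 3 rose in WT D1 against control. Across all 13041 genes tested there, 5.64% were called lower and 55.4% higher. All 17 that fell were mitochondrial, and the 3 that rose were Cpt1a, Acaa1a and Hsd17b4. The median log2 difference was −0.72 over the 23 mitochondrial members, 0.49 over the 3 peroxisomal members and −0.52 over the 4 of several compartments, against 0.66 over all genes tested. In 15 members every D1 library lay below every control library, against 7.03% of all genes, and in 4 every D1 library lay above, against 64.2%. Of all called genes 90.8% were higher in TPM, and 48.9% to 72% under the other scalings described below. The count rested on single libraries: 6 members were called without control replicate 1, 7 without control replicate 3 and 11 without D1 replicate 2, against 18 to 23 without any other library.
Enzymes of each step of the mitochondrial chain were among those that fell. All 5 enzymes of the hydratase to thiolase steps (Echs1, Hadh, Hadha, Hadhb, Acaa2) fell, by 0.48 to 1.00 on the log2 scale. Acadm, the medium-chain dehydrogenase, had 150, 120 and 160 TPM in controls and 90.9, 55.8 and 85.9 TPM at D1. It was lower in every D1 library, by 0.90 ± 0.22 (SE) log2 units (adjusted p = 0.0094). Acadvl fell as well, whereas Acadl, Acads and Acad11 did not pass the test. Acot13, a mitochondrial acyl-CoA thioesterase, had 123, 113 and 129 TPM in controls and 60.6, 46.2 and 65.0 TPM at D1, and fell by 1.08 ± 0.18 log2 units (adjusted p = 0.0025). Its thioesterase partner in the list, Acot2, fell by 0.96 ± 0.26. Etfb and Etfdh fell by 0.72 each, and Etfa did not pass the test (−0.14 ± 0.18). Among the auxiliary enzymes for unsaturated chains Eci1 and Decr1 fell, and Eci2 had 0.39 ± 0.18 without passing. Slc25a20, Crat and Mlycd, the malonyl-CoA decarboxylase that relieves the block on Cpt1, also did not pass.

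**Figure D1:**
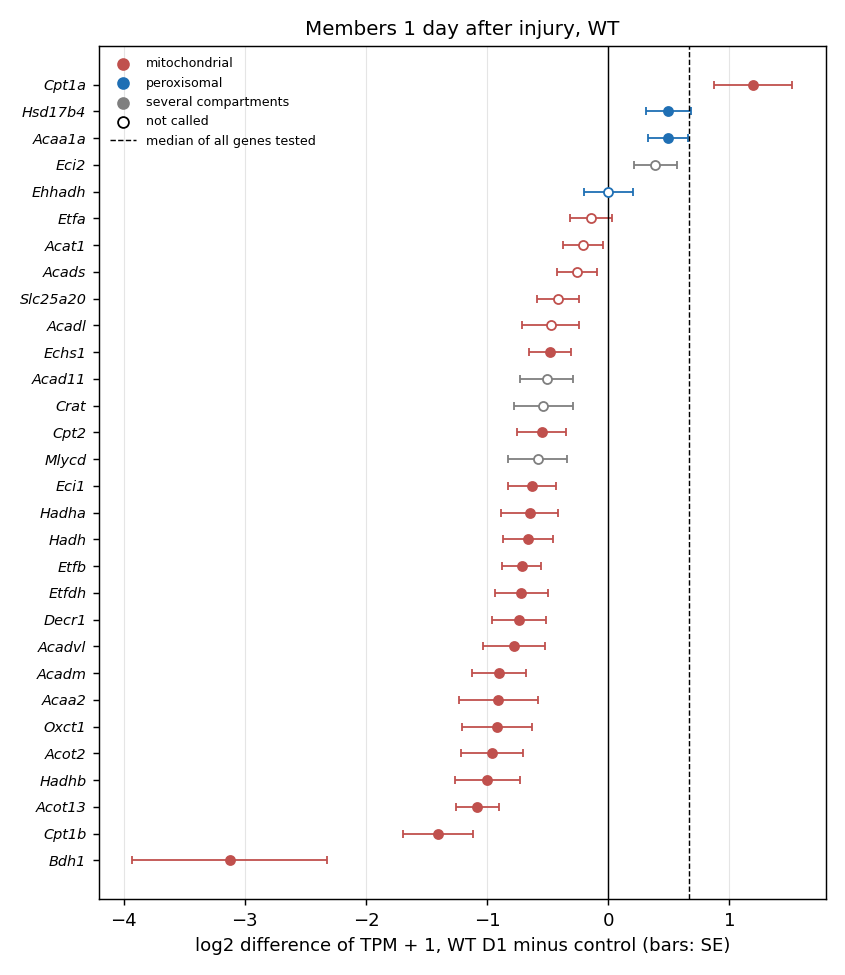
Log2 difference of TPM + 1 between WT D1 and control for each member (x axis, bars are SE, 3 libraries a group), ordered by size and coloured by compartment, with filled points called at an adjusted p below 0.05 and the dashed line at the median of all genes tested (0.66). Bdh1 (−3.12) and Cpt1b (−1.41) lie lowest, and Cpt1a (1.198), Hsd17b4 and Acaa1a (0.50 and 0.49) lie highest.

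The muscle and liver isoforms of the gatekeeper enzyme moved in opposite directions after injury. Cpt1b had 146, 104 and 142 TPM in controls and 56.5, 29.98 and 65.2 TPM at D1, a fall of 1.41 ± 0.29 log2 units (adjusted p = 0.0050). Cpt1a had 8.85, 7.61 and 7.33 TPM in controls and 19.4, 31.9 and 11.7 TPM at D1, a rise of 1.198 ± 0.32 (adjusted p = 0.013). The groups did not overlap for either gene, and Cpt1a kept its direction but was no longer called with quantile normalization or median-of-ratios scaling. The ratio of Cpt1b to Cpt1a, which a common scaling of a library cannot move, was 2.92, 0.94 and 5.56 in the D1 libraries, below all 3 controls. Cpt1a was highest in D1 replicate 2, which also held the most leukocyte markers (5169 TPM), and lowest in replicate 3, which held the fewest (1048 TPM). The part of infiltrating cells in the Cpt1a level was not tested.
Of the ketone body enzymes, Bdh1, which interconverts 3-hydroxybutyrate and acetoacetate, changed most. Its level was 33.7, 14.6 and 45.2 TPM in controls and 13.1, 0.75 and 0.53 TPM at D1, a log2 difference of −3.12 ± 0.81 (adjusted p = 0.011). D1 replicate 1 kept a level close to the lowest control, while the other D1 libraries were near 0. Oxct1, which activates acetoacetate with coenzyme A from succinyl-CoA, had 142, 81.8 and 132 TPM in controls and 88.3, 47.1 and 53.0 TPM at D1, and fell by 0.92 ± 0.29 (adjusted p = 0.024). Acat1, the thiolase that splits acetoacetyl-CoA, was 82.3 ± 10.6 TPM (SD, n = 3) in controls and 70.9 ± 7.37 TPM at D1, and did not pass the test (−0.21 ± 0.17, adjusted p = 0.30).

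**Figure D2:**
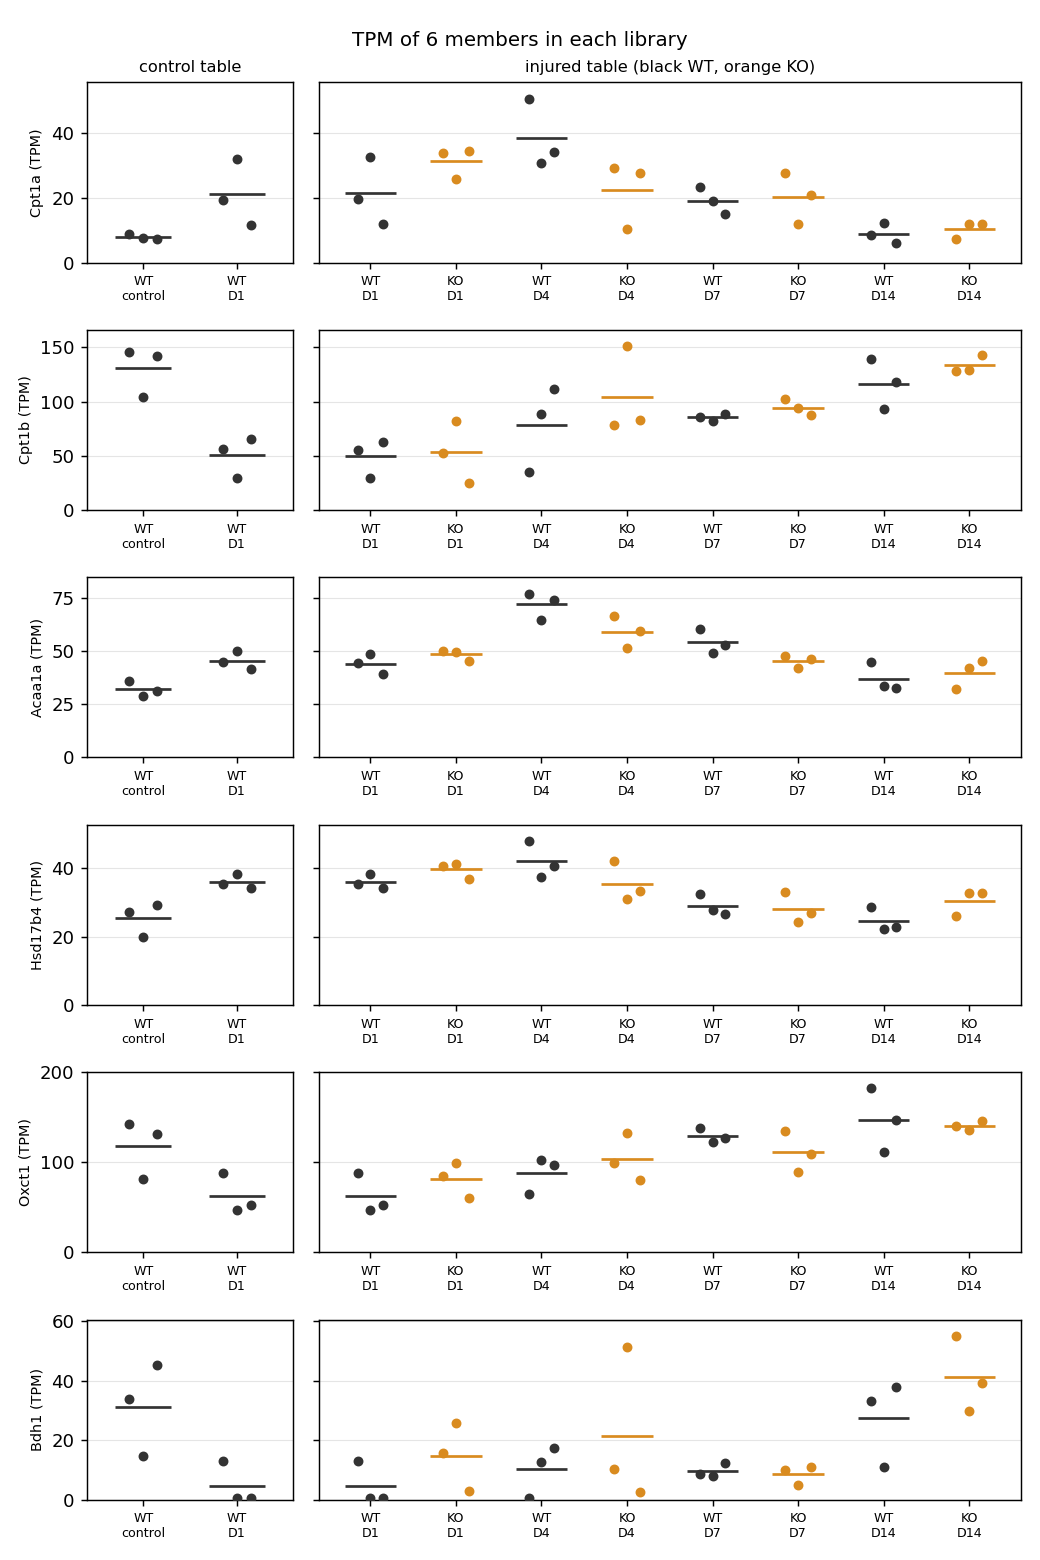
TPM of Cpt1a, Cpt1b, Acaa1a, Hsd17b4, Oxct1 and Bdh1 in every library (points, y axes from 0) with the group mean (bars), in the control table (left) and the injured table (right, WT black and KO orange), which were normalized separately. Cpt1a is at 30.8 to 50.5 TPM at WT D4 and at 6.16 to 12.1 TPM at WT D14, and Bdh1 spreads from 0.57 to 51.4 TPM within D4.

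The peroxisomal enzymes did not follow the mitochondrial ones. Acaa1a had 35.9, 29.0 and 31.0 TPM in controls and 44.7, 49.8 and 41.5 TPM at D1, a difference of 0.49 ± 0.16 (adjusted p = 0.029). Hsd17b4 had 27.2, 19.98 and 29.4 TPM in controls and 35.5, 38.3 and 34.2 TPM at D1, a difference of 0.50 ± 0.19 (adjusted p = 0.046). Both calls were lost when any library other than D1 replicate 3 was left out, and with the replicate number as a block. Ehhadh stayed at 1.38 to 2.15 TPM in controls and 1.74 to 1.93 TPM at D1. The direction of the peroxisomal enzymes depended on the scale: TPM shares shifted the median gene up by 0.66, and with median-of-ratios scaling, quantile normalization or the 50 most abundant genes removed Acaa1a and Hsd17b4 came out at −0.28 to −0.01 without a call and Ehhadh was called lower with the first and second of these, while the mitochondrial median fell to between −1.49 and −1.22 and 22 of its 23 members were called lower. Against all genes, therefore, both sets were lower in the TPM data, the peroxisomal median by 0.17 and the mitochondrial median by 1.38. The mitochondrial median lay 1.21 below the peroxisomal one in TPM and 1.04 to 1.22 below it under those 3 scalings. A common scaling of a library nearly cancels in this distance, so near-equal values were fixed in advance for all but quantile normalization. With quality weights the mitochondrial minus peroxisomal median was −0.85. Within libraries, the mean log2 level of the mitochondrial members exceeded that of the peroxisomal members by 2.54 to 2.62 in controls and by 1.23 to 1.93 at WT D1. With the 4 members of several compartments counted as peroxisomal the distance in medians was 0.72. Only 3 genes make up the peroxisomal set, and no test was run on the distance.

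**Figure D3:**
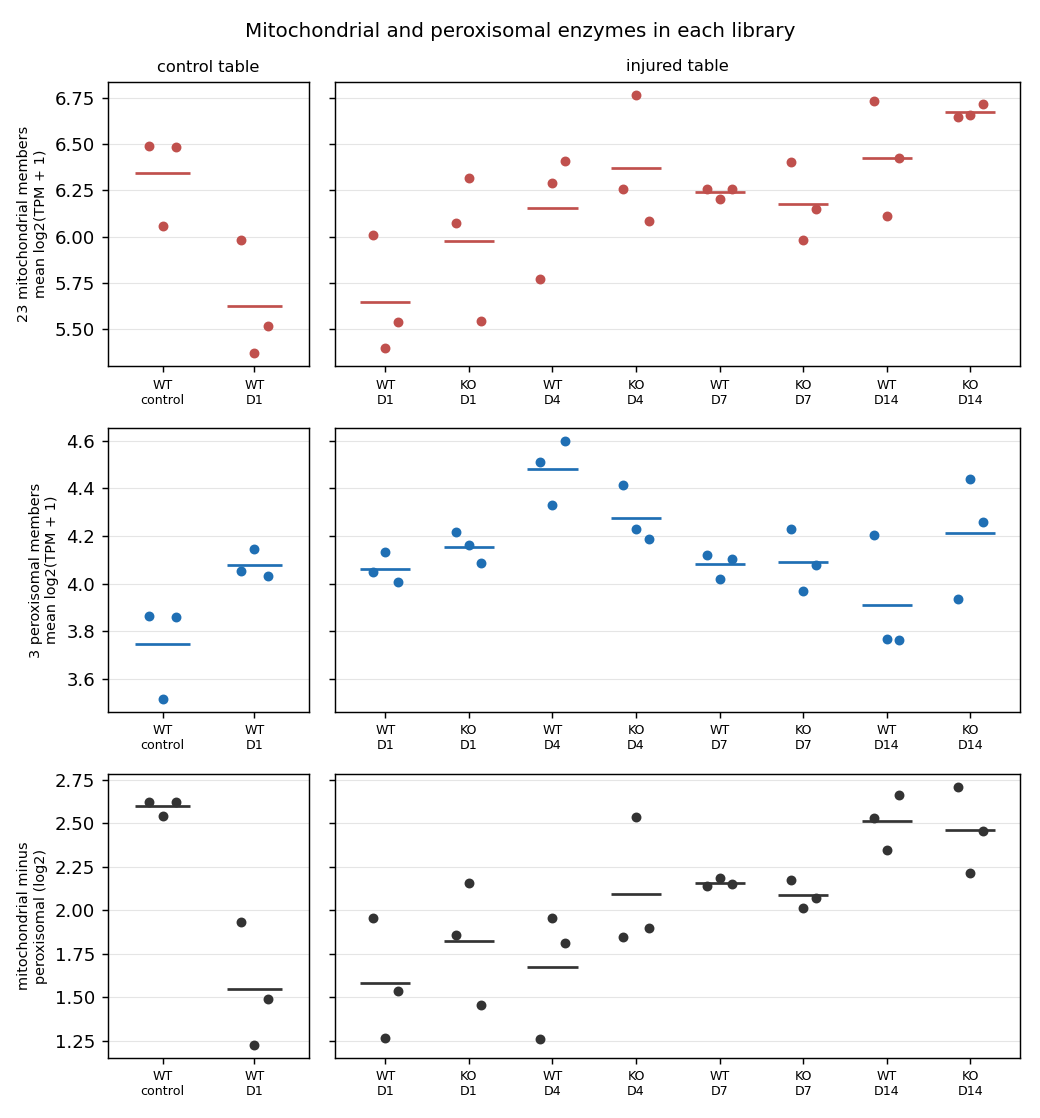
Mean log2(TPM + 1) of the 23 mitochondrial members (top), the 3 peroxisomal members (middle) and their difference (bottom) in every library (points, bars are group means), in the control table (left) and the injured table (right). The y axes do not start at 0. The difference is 2.54 to 2.62 in controls, 1.23 to 1.93 at WT D1 and 2.35 to 2.66 at WT D14.

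Other genes of the pathway were split, and their counts stand beside 55.4% of all genes called higher, 5.64% called lower and a median of 0.66. Of 18 other peroxisomal lipid oxidation genes 14 were tested, of which 4 rose and 2 fell at WT D1. The 2,4-dienoyl-CoA reductase Decr2 rose by 1.47 ± 0.22, the thioesterase Acot8 by 1.21 ± 0.23, and Phyh, the phytanoyl-CoA hydroxylase, fell by 1.03 ± 0.28. Of 16 other fatty acid and ketone genes, not all of them mitochondrial, 3 rose and 1 fell, with a median of 0.20. Of 14 peroxisome assembly genes 3 rose and none fell, with a median of 0.35, below that of all genes. Of 13 regulators of fatty acid oxidation 2 rose and 4 fell, among the latter Ppara (−1.86 ± 0.37), the receptor that drives many of these genes, and its coactivator Ppargc1a (−1.35 ± 0.34), whereas the AMPK subunit Prkaa1 rose (1.30 ± 0.25). Of the 27 respiratory chain subunits tested 20 fell and none rose, with a median of −0.58, and of 12 glycolysis genes 1 rose and 4 fell. The medians of the respiratory chain and of the 14 myofibre markers (−0.86, 5 called lower) lay on either side of the mitochondrial members' −0.72. WT D1 replicates 1, 2 and 3 held 125940, 103100 and 209820 TPM of myofibre markers, the last within the control range of 203120 to 219220 TPM. Their mitochondrial members summed to 1959, 1323 and 1511 TPM, against 2160 to 2862 TPM in controls. The sum of the 14 myofibre markers does not show the level of each one. Those called lower at WT D1 were Myh2 (−3.14), Mb (−3.06), Pvalb (−0.97), Atp2a1 (−0.97) and Actn3 (−0.83). These are differences between groups and do not give the levels in replicate 3 alone. How much of the fall in the enzymes goes with the myofibre share, or with single markers such as Mb and Myh2, was not tested.

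Between D1 and D4 in WT mice, 6 of the 30 members rose and none fell, against 14.6% of 15718 genes tested called higher and 5.27% called lower in the injured table. Acaa2, the thiolase for medium and long chains, had 104, 55.6 and 41.9 TPM at D1 and 126, 171 and 186 TPM at D4, a rise of 1.33 ± 0.33 log2 units (adjusted p = 0.0073). Acot2 rose by 1.06 ± 0.22, the short-chain dehydrogenase Acads by 0.80 ± 0.17 and Acadl by 0.72 ± 0.23. The Acadl call was lost in 4 of 6 leave-outs. Etfb rose by 0.58 ± 0.20, a call that was lost without any 1 of the 6 libraries. The peroxisomal thiolase Acaa1a rose with them, from 44.4, 48.7 and 39.3 TPM to 77.0, 64.6 and 74.0 TPM (0.69 ± 0.15, adjusted p = 0.0029). The median over the mitochondrial members was 0.38 and over the peroxisomal members 0.34, against 0.17 over all genes, so the distance between the sets moved by 0.04. Cpt1a reached its highest level of the course at WT D4, with 50.5, 30.8 and 34.2 TPM, but its step from D1 did not pass (0.90 ± 0.39, adjusted p = 0.11). Myofibre markers went the other way in this step, with 7 of 14 called lower and a median of −0.66. Without WT D1 replicate 3, which had the fewest leukocyte markers of its group, 3 of the 30 were called. With median-of-ratios scaling, quantile normalization and the 50 most abundant genes removed, 2, 5 and 3 members were called higher and none lower. The mitochondrial median was then 0.096, 0.24 and 0.14.

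From D4 to D7 no member rose and 2 fell, against 3.04% and 9.31% of all genes. Hsd17b4 went from 48.0, 37.6 and 40.9 TPM to 32.6, 27.7 and 26.7 TPM, a fall of 0.52 ± 0.15 (adjusted p = 0.032), and Acot2 fell by 0.83 ± 0.22 (adjusted p = 0.024). Neither call held without WT D4 replicate 1, WT D4 replicate 3, WT D7 replicate 2 or WT D7 replicate 3, nor under the 3 other scalings, with which 0 to 3 members were called higher and 0 lower. From D7 to D14 again none rose and 2 fell, against 0.923% and 30.9% of all genes: Cpt1a by 1.04 ± 0.39 (adjusted p = 0.046) and Acaa1a by 0.55 ± 0.15 (adjusted p = 0.015). Leaving out WT D14 replicate 3 or WT D7 replicate 1 left none of the 30 called in that step, and leaving out WT D7 replicate 2 or WT D7 replicate 3 left 1. The Cpt1a call was lost in 5 of 6 leave-outs, among them that of WT D14 replicate 1, and with no filter. Under the 3 other scalings both calls were lost and the count turned to 2 or 3 members higher and 0 lower.

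Over the later course, from D4 to D14 in WT mice, 8 members rose and 5 fell, against 7.07% and 56.6% of all genes. Those that rose were Acot13, Crat, Eci1, Oxct1, Acadm, Acad11, Etfdh and Etfa. Acot13 went from 54.5, 103 and 74.6 TPM at D4 to 168, 118 and 136 TPM at D14 (0.89 ± 0.20, adjusted p = 9.9e-04). Crat, the carnitine acetyltransferase that buffers acetyl-CoA, went from 64.3, 99.0 and 122 TPM to 192, 142 and 157 TPM (0.81 ± 0.24, adjusted p = 0.0064). Eci1, which shifts the double bond of unsaturated chains, went from 52.1, 81.1 and 96.5 TPM to 148, 103 and 126 TPM (0.73 ± 0.25, adjusted p = 0.016). No D14 library of these 3 genes was below a D4 library of the same gene. Of all genes 8.11% had every D14 library above every D4 library. Oxct1 rose by 0.73 ± 0.25, from 64.3 to 103 TPM at D4 to 112 to 182 TPM at D14.
The 5 that fell in TPM were Cpt1a, Acaa1a, Hsd17b4, Acot2 and Acads, of which Acot2 and Acads came out above 0 without a call under all 3 other scalings and each lost its call in 4 of 6 leave-outs. Cpt1a dropped to 8.58, 12.1 and 6.16 TPM at D14, a log2 difference of −2.002 ± 0.39 (adjusted p = 2.4e-04). The controls of the other table had 7.33 to 8.85 TPM. Acaa1a dropped to 44.9, 33.6 and 32.6 TPM (−0.95 ± 0.15, adjusted p = 4.8e-05) and Hsd17b4 to 28.8, 22.3 and 22.9 TPM (−0.75 ± 0.15, adjusted p = 3.4e-04). Neither call was lost on leaving out a library, but both were lost under all 3 other scalings. Hsd17b4 then came to 0.10 with median-of-ratios scaling and 0.026 with quantile normalization. For both genes every D14 library lay below every D4 library, as for 60.1% of all genes. Ehhadh had 2.09 to 3.52 TPM at D4 and 2.12 to 3.58 TPM at D14. Cpt1b had 34.9, 88.8 and 112 TPM at D4 and 139, 93.0 and 118 TPM at D14, and did not pass the test (0.70 ± 0.40, adjusted p = 0.13). Bdh1 had 0.57, 12.7 and 17.5 TPM at D4 and 33.3, 11.1 and 38.0 TPM at D14 (1.78 ± 1.00, adjusted p = 0.13). Acat1 also did not pass (0.11 ± 0.14).
The median difference was 0.41 over the mitochondrial and −0.75 over the peroxisomal members, a distance of 1.16, while the median over all genes was −0.68. Of all called genes 11.1% were higher, and 39.9% to 50.6% under the other scalings. Under the 3 other scalings 21 to 23 members rose and only Cpt1a fell, and the peroxisomal median lay between −0.04 and 0.10. The distance, which a common scaling of a library hardly moves, was 1.11 to 1.18 under them and 0.89 with quality weights. Without WT D4 replicate 1, whose myofibre marker level was the lowest, 2 members rose and 5 fell and the distance was 0.86. Counts for the other lists in this step stand beside 7.07% of all genes called higher and 56.6% called lower. Leukocyte markers fell in the same step (11 of 12 called lower, median −3.35) and myofibre markers rose (9 of 14, median 1.22). Of the 27 respiratory chain subunits tested 13 rose and none fell. Of 14 peroxisome assembly genes 1 rose and 9 fell, and of the other peroxisomal lipid oxidation genes 2 rose and 5 fell, with Decr2 at −2.22 ± 0.30, Acox3, the oxidase of branched chains, at −1.33 ± 0.17 and Phyh at 1.24 ± 0.28. Of the other fatty acid and ketone genes 2 rose and 8 fell. Ppara (1.59 ± 0.44), the muscle AMPK subunit Prkaa2 (1.31 ± 0.23) and Ppargc1a (1.22 ± 0.40) were among 4 regulators that rose, and 3 fell.

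**Figure D4:**
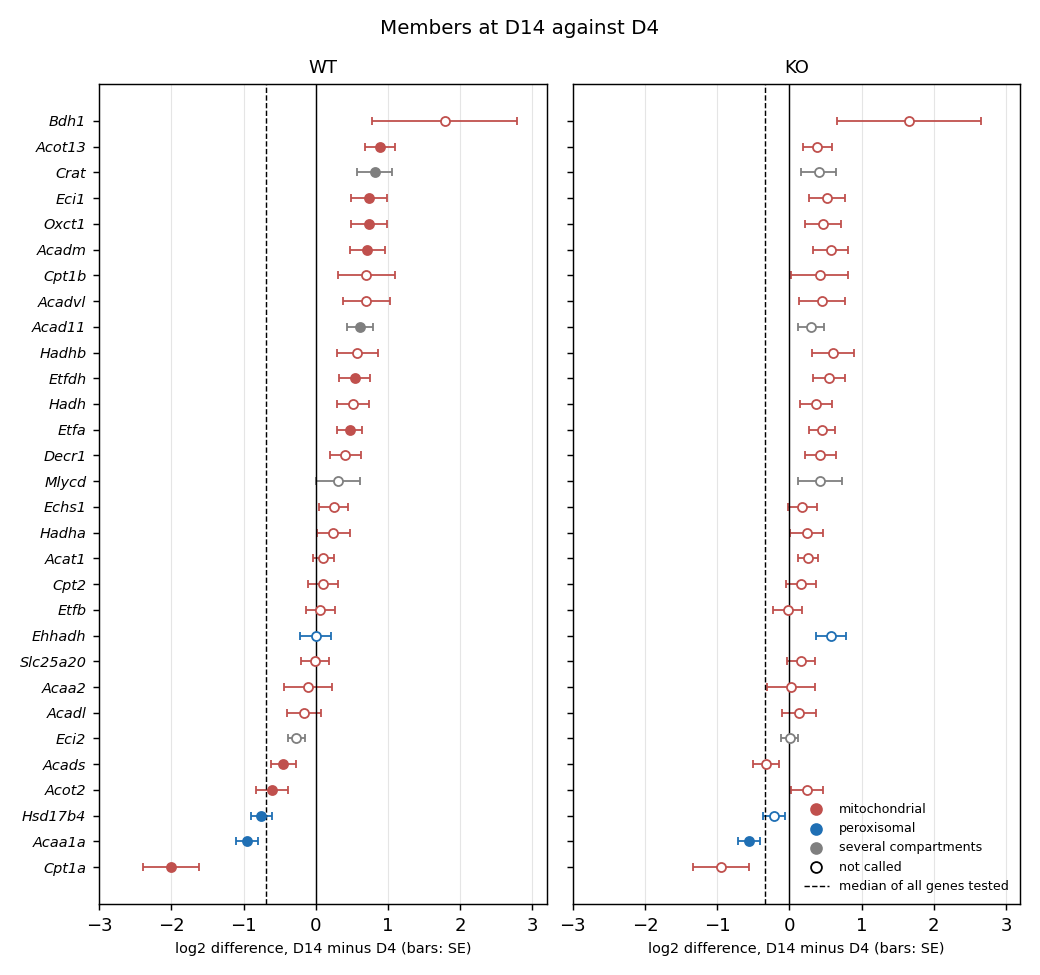
Log2 difference of TPM + 1 between D14 and D4 in WT (left) and KO (right) for each member (bars are SE, 3 libraries a group), in the order of the WT values and coloured by compartment, with filled points called and the dashed line at the median of all genes tested (−0.68 in WT, −0.33 in KO). In WT 8 members are called higher and 5 lower, with Cpt1a at −2.002, and in KO only Acaa1a is called (−0.56).

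From D1 to D4 in KO mice 4 members rose and none fell, against 7.18% and 12.2% of all genes. They were Acaa2 (1.00 ± 0.33), Acot13 (0.80 ± 0.20), Etfb (0.74 ± 0.20) and Acads (0.55 ± 0.17). None of the 4 passed without KO D4 replicate 2 or without KO D1 replicate 3, and 2 members were called without KO D1 replicate 1 or without KO D4 replicate 3. From D4 to D7 no member was called, as for all genes (0% called by limma), and 3 had an unadjusted p below 0.05: Acaa1a (−0.37 ± 0.15), Acat1 (−0.35 ± 0.14) and Hsd17b4 (−0.33 ± 0.15).
From D7 to D14 no member passed the test either, against 0.0827% of all genes called higher and 0.477% lower, but 23 of the 30 had every D14 library above every D7 library, against 5.48% of all genes. Only Cpt1a had every D14 library below (25.7% of all genes). In WT the same step separated 5 members upwards (4.58% of all genes) and 2 downwards (58.9%). The WT count was limited by WT D14 replicate 2. Its mean log2 level of the mitochondrial members was 6.114, below the WT D7 libraries (6.205 to 6.256), against 6.734 and 6.425 in the other WT D14 libraries. Members measured in the same libraries are not separate observations. In the KO step 12 members had an unadjusted p below 0.05 with a higher level at D14 and 1 with a lower level. Acat1 came closest, from 73.5, 60.5 and 62.9 TPM to 108, 97.7 and 95.4 TPM (0.61 ± 0.14, adjusted p = 0.061). Acadm went from 134, 104 and 108 TPM to 199, 190 and 184 TPM (0.73 ± 0.24, adjusted p = 0.15), and Etfa from 158, 94.7 and 131 TPM to 198, 196 and 161 TPM (0.55 ± 0.18, adjusted p = 0.14). The median was 0.50 over the mitochondrial, 0.12 over the peroxisomal and −0.19 over all genes. Adipocyte markers had a median of 1.24 and leukocyte markers one of −1.29 in this step, with none of either list called, and their part in the members' values was not tested.
From D4 to D14 in KO, Acaa1a fell from 66.2, 51.4 and 59.5 TPM to 32.3, 42.1 and 45.2 TPM (−0.56 ± 0.15, adjusted p = 0.015) and was the only member called, against 2.28% of all genes called higher and 23.5% lower. The call was lost without KO D14 replicate 1, KO D4 replicate 1 or KO D4 replicate 3, and under the 3 other scalings, with which 4 to 8 members were called higher and 0 lower. KO D4 replicate 2 decided the count: it held 151 TPM of Cpt1b, 51.4 TPM of Bdh1 and 10.3 TPM of Cpt1a, against 78.7 and 82.7, 10.3 and 2.71, and 29.2 and 27.5 TPM in the other KO D4 libraries. Without it 12 members rose and 2 fell. Cpt1a fell by 0.94 ± 0.39 in all KO libraries without passing (adjusted p = 0.075). Whether the WT and KO steps differed was tested by the genotype by day term below.

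Loss of Gsdme was not accompanied by a called change in any of the 30 members on any day. Of all 15718 genes, 0.00636% were called at D1 and 0% at D4, D7 and D14, with 0.00636% averaged over days, and 0% for the genotype by day F test (all limma). Unadjusted p values below 0.05 were seen for 1 member at D1, 4 at D4, 0 at D7, 2 at D14, 1 averaged over days and 0 in the F test. The median KO minus WT difference over the members was 0.19, 0.24, −0.05 and 0.23 at D1, D4, D7 and D14, against 0.09, −0.28, −0.19 and 0.08 over all genes. The mitochondrial median was 0.24, 0.25, −0.06 and 0.25, and the peroxisomal median 0.14, −0.24, −0.05 and 0.30. At D1 1 member had every KO library above every WT library and none below (3.33% and 3.38% of all genes). At D4 none lay above and 1, Cpt1a, below (2.77% and 11.2%). At D7 2 lay above and 1 below (1.85% and 14.6%), and at D14 1 lay above and none below (7.37% and 1.04%).
Acot2, which frees fatty acids from coenzyme A in the mitochondrial matrix, had the lowest unadjusted p at D1, D7, D14, averaged over days and in the F test. At D14 it had 6.97, 4.96 and 4.53 TPM in WT and 7.97, 10.4 and 8.75 TPM in KO, without overlap (0.64 ± 0.22, unadjusted p = 0.0088, adjusted p = 1 by limma). At D1 it had 3.78, 2.87 and 4.58 TPM in WT and 5.47, 6.70 and 5.40 TPM in KO (0.54 ± 0.22, adjusted p = 0.87). At D4 the order was turned (−0.21 ± 0.22), and its genotype by day term had an unadjusted p of 0.056 (adjusted p = 0.53). Cpt1a at D4 had 50.5, 30.8 and 34.2 TPM in WT and 29.2, 10.3 and 27.5 TPM in KO (−0.86 ± 0.39, unadjusted p = 0.038, adjusted p = 0.21), with the lowest value in KO D4 replicate 2, the library low in leukocyte markers. At D4 the leukocyte markers had a median KO minus WT difference of −1.19 and the myofibre markers one of 0.75, with none called. Acot13 (0.54 ± 0.20), Crat (0.55 ± 0.24) and Acad11 (0.46 ± 0.18) were higher by estimate in KO at D4 with the same adjusted p of 0.21.
Ehhadh at D14 had 3.58, 2.13 and 2.12 TPM in WT and 2.97, 6.03 and 3.49 TPM in KO (0.50 ± 0.21, adjusted p = 1), and Hsd17b4 had 0.30 ± 0.15. The highest Ehhadh and Acot2 values came from KO D14 replicate 2. The summed level of the 10 adipocyte markers was 458 to 537 TPM at WT D14 and 830 to 2088 TPM at KO D14, highest in that same replicate, and none of the 10 was at 0 in all libraries. Their median difference was 2.08, with 9 of 10 at an unadjusted p below 0.05 and none called. Their part in the Ehhadh and Acot2 values was not tested. Of the ketone enzymes Bdh1 had 1.84 ± 1.00, 0.82, −0.18 and 0.70 from D1 to D14, with within-group ranges as wide as 2.71 to 51.4 TPM at KO D4, Oxct1 lay between −0.23 and 0.40, and Acat1 between −0.12 and 0.20.

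**Figure D5:**
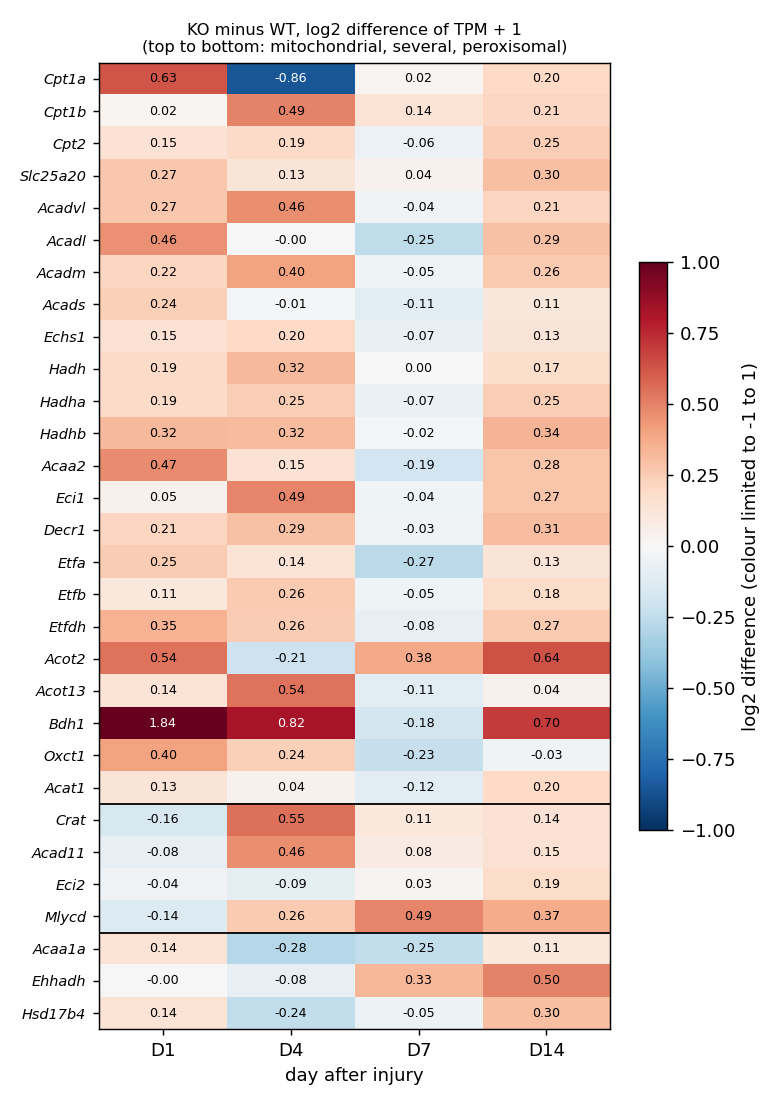
KO minus WT log2 difference of TPM + 1 for each member (rows, grouped from top to bottom as mitochondrial, several compartments and peroxisomal) on each day (columns), with red for higher and blue for lower in KO and the colour limited to −1 to 1. None of the values passed the test. Bdh1 at D1 (1.84) and Cpt1a at D4 (−0.86) are the values furthest from 0 in each direction.

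The members differed widely in how much they varied over the 24 injured libraries. Eci2 had the narrowest range, 49.8 to 86.9 TPM (1.74 times), and Acat1 the next, 57.2 to 108 TPM (1.89 times). Bdh1 ran from 0.54 to 55.1 TPM, 102 times, followed by Cpt1a at 8.19 times and Cpt1b at 6.03 times. The subunits of the trifunctional protein, whose genes share the stretch shown above, did not keep one ratio. Hadhb exceeded Hadha 1.55 to 1.76 times in control muscle and 1.15 to 1.47 times at WT D1. In the injured table the ratio was 1.12 to 1.35 at WT D4, 1.38 to 1.43 at WT D7 and 1.55 to 1.59 at WT D14, without overlap between those 3 days. In KO it was 1.16 to 1.48 at D4, 1.34 to 1.53 at D7 and 1.56 to 1.83 at D14. The ratio of Cpt1b to Cpt1a in the injured table was 0.69 to 3.27 at WT D4, 7.69 to 19.1 at WT D14 and 10.9 to 17.5 at KO D14, so that every D14 library lay above every WT D4 library. At KO D4 it was 2.69, 14.7 and 3.01, and replicate 2 lay above 3 of the 6 D14 libraries.
Levels of the same 3 WT D1 libraries in both tables lay within 10% of each other for 28 members. Decr1 was 1.55 to 1.68 times higher in the injured table and Acat1 0.90 times as high, so their levels were not set across tables.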

How the data were processed

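RNA of whole muscle was sequenced by the authors as paired-end libraries. The methods describe separate batches for the control comparison and the time course, and the labels name none, so the tables share their WT D1 libraries but a batch could not be modelled. The deposited files hold TPM values per gene, made by the authors on build mm10 per the submitters' processing notes (aligner and counter not given in the sources used here), in 2 tables normalized separately. Reads per library are not given, so depth is unknown and no counting interval was computed. All columns of samples were mapped (0 left out), and the authors' group mean columns were not used. Entries with at least 1 TPM in at least 3 libraries were kept. log2(TPM + 1) was fitted with limma 3.58.1 (R 4.3.3) with 1 mean per group and a variance trend, and p-values were adjusted by Benjamini-Hochberg over all genes tested. A fold on this scale understates the change of low genes such as Ehhadh. Members with several entries would have been taken by the highest mean TPM. Members and lists were chosen with earlier results of these data known. Values are named for the 3 peroxisomal members, Cpt1a, Cpt1b and the ketone enzymes, and in each comparison for the 3 highest and 3 lowest called members or, with none called, the 3 with the lowest unadjusted p. Other members named for context, and the motifs and promoter stretches, were chosen after their values were seen. The design text calls the libraries of a group biological triplicates, with no animal named. Alternatives were a pseudocount of 0.1, no filter or a filter of 5 TPM, median-of-ratios scaling, quantile normalization, removal of the 50 most abundant genes, quality weights, fits of only the groups compared, a replicate block, a threshold of 0.1, and leaving out each library.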

Additional observations from a re-analysis of the deposited data

How the results depend on the processing

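No member was called in KO against WT on any day under any alternative run, except 1 at D7 with quality weights. Leaving out single libraries gave 6 to 23 calls for WT D1 against control, 3 to 6 for WT D4 against D1, 0 to 2 for WT D7 against D4, 0 to 3 for WT D14 against D7, 7 to 14 for WT D14 against D4, 0 to 6 for KO D4 against D1 and 0 to 14 for KO D14 against D4. The distance between mitochondrial and peroxisomal medians then ran from 0.29 to 0.80 for WT D7 against D4 and from 0.86 to 1.26 for WT D14 against D4. With no filter 8 members were called after injury, 1 in WT D14 against D7 and 2 in KO D4 against D1. With median-of-ratios scaling, 2, 0 and 24 were called in WT D4 against D1, D7 against D4 and D14 against D4, and 1 and 4 in KO D14 against D7 and D14 against D4 (all 4 higher). Quantile normalization gave 23 in WT D14 against D4, 1 and 8 in those KO steps (all 8 higher) and 3 in WT D7 against D4 (all higher). Removing the 50 most abundant genes gave 3, 1 and 22 in those WT steps, and 1 and 7 in those KO steps (all 7 higher). Quality weights gave 13, 12 and 22 calls in WT D7 against D4, D14 against D7 and D14 against D4, and 0, 26 and 4 in KO D4 against D1, D14 against D7 and D14 against D4. They set the distance to −0.048 for KO against WT at D4, 0.45 for WT D4 against D1, 0.37 for WT D7 against D4 and −0.85 after injury. Fitting only the groups compared gave 1 call in WT D4 against D1, 7 in WT D14 against D7, and 0, 7 and 0 in the same 3 KO steps. At an adjusted p below 0.1, 4 were called in WT D7 against D4, and 1 and 6 in KO D14 against D7 and D14 against D4. Counting the members of several compartments as peroxisomal set the distance to 0.38, −0.049 and 0.41 for WT D4 against D1, D14 against D7 and D14 against D4, to 0.072 for KO D14 against D4 and to −0.72 after injury. The cause of these changes was not tested.

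Among all called members, 4 turned direction, each only under other scalings. After injury Hsd17b4 came to −0.27, −0.18 and −0.00865 and Acaa1a to −0.28, −0.13 and −0.016 with median-of-ratios scaling, quantile normalization and the 50 genes removed. With the first of these Acaa1a came to 0.034 in WT D14 against D7, and Hsd17b4 in WT D14 against D4 came to 0.10, and to 0.026 with quantile normalization. In WT D14 against D4 Acads came to 0.42, 0.28 and 0.28 and Acot2 to 0.15, 0.24 and 0.036 with the 3 scalings in that order. With the replicate number as a block 19 members were called after injury (1 higher and 18 lower, with Acaa1a, Hsd17b4 and Echs1 no longer called) and 2 in KO D14 against D4 (1 higher and 1 lower). Same-numbered WT and KO libraries correlated in their deviations from the group means by −0.40 to 0.39. For control and D1 libraries this was 0.00 to 0.06, so the numbers were not read as pairs. The methods place the control muscle on the contralateral side and no animal is named. Control and D1 libraries may thus share mice, which the main fit did not take into account. TPM keeps no read depth, so what depth limits could not be computed.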
